A study of Mus musculus with 9 samples.

Results

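The genes described are the solute carriers, the membrane transporters whose symbols begin with Slc and a family number, in the lungs of a mouse asthma model. Members were taken by symbol from the array's probe annotation, leaving out 2 genes of the family, and then by signal. A probe set, the group of short probes that reads 1 transcript, was kept where its scaled intensity exceeded 44.7 on at least 3 of the 9 arrays. That limit is the 40th percentile of all scaled values and serves throughout as the detection limit. The array carried 183 such probe sets for 149 genes. Of these, 116 probe sets for 105 genes passed, 63.4% of the Slc probe sets against 63.8% of the probe sets of the array that are not controls, and 44 genes had no detected probe set.

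Whole-lung RNA of C57BL6 mice was hybridised to 9 Affymetrix expression arrays, 3 per group. In all groups the model was the one induced with ovalbumin (OVA), the egg-white protein used as allergen. Saline mice were challenged with saline, OVA mice with OVA, and agonist mice with OVA while also given an agonist of EP3, one of the prostaglandin E2 receptors. A time of 24 h stands in the titles of the OVA and agonist arrays. Dose and timing of the agonist, age and sex of the mice, and the sensitisation schedule are not stated in the labels. Nothing says that the 3 arrays of a group are 3 mice, so the p-values measure the spread between these samples, which may be technical. The lung is a mixture of cells, and in such bulk RNA fewer cells of a type and less RNA per cell cannot be told apart.

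Solute carriers move sugars, amino acids, ions, metals, nucleosides, vitamins and organic ions across the plasma membrane and the membranes of organelles, as cotransporters, exchangers or facilitated carriers. The family number groups proteins by sequence and, for most families, by substrate. In lung they supply sodium-coupled phosphate uptake in alveolar type 2 cells, chloride and bicarbonate movement in airway epithelium, adenosine uptake in endothelium, and metal export from the phagosomes of macrophages. A few symbols of the series belong to partner proteins that carry nothing themselves.

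The promoters of 3 members are shown: Slc11a1, whose rise in challenged lung passed whichever array was left out, Slc5a1, detected in OVA lung alone, and Slc25a25, lower with the agonist than in both other groups. Each window runs from 250 bases before the annotated start to 50 after it, 5′ to 3′ on the gene's strand, and comes from RefSeq on GRCm38.p6. The Slc11a1 window lies at chr1:74374953-74375252 on the plus strand, the Slc5a1 window at chr5:33103969-33104268 on the plus strand, and the Slc25a25 window at chr2:32424017-32424316 on the minus strand. RefSeq lists 3 start windows for Slc25a25, and the one shown was chosen because it holds motif matches, which the other two lack. Capitals mark matches, on either strand, to the core of the PU.1 site of myeloid cells (GAGGAA), the cAMP response element or CRE (TGACGTCA), and the spaced palindrome bound by STAT6, the factor downstream of interleukin-4 (TTC and GAA with any 4 bases between).
Slc11a1: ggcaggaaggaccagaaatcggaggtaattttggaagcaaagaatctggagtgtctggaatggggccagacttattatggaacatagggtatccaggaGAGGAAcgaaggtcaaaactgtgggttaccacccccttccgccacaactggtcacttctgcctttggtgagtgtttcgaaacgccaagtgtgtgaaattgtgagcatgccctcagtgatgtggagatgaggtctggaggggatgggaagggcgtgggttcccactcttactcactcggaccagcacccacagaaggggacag
Slc5a1: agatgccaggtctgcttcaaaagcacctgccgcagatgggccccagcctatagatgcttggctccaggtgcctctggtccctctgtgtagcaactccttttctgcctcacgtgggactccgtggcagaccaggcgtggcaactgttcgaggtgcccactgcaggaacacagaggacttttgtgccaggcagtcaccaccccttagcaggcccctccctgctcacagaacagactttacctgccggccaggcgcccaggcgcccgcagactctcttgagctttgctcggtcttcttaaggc
Slc25a25: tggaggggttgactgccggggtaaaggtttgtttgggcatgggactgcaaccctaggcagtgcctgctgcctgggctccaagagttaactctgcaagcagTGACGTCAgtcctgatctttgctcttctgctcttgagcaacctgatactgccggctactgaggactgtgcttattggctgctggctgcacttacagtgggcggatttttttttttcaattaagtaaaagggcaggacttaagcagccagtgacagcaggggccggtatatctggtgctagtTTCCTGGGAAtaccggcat
The Slc11a1 window held 1 PU.1 match, 152 bases before the start. The Slc25a25 window held a CRE match 150 bases before the start and a STAT6 match beginning 31 bases after it, and the Slc5a1 window held none of the 3 motifs. Of 32851 windows of this length in the table, 28.3% held the PU.1 letters, 1.79% the CRE and 6.95% the STAT6 letters. Among the 121 windows of the 87 members found in the table the shares were 19.8%, 1.65% and 4.96%. PU.1 and STAT6 matches overlapped in 149 of all windows, and the CRE overlapped neither. A match is a description of the letters only.

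Several values of the arrays bear on what follows. The 3 agonist arrays were not alike: the summed level of 5 goblet cell markers was 349, 896 and 5755 on agonist arrays 1, 2 and 3, against 136 to 169 in saline and 6361 to 7668 in OVA lung, and the sum of 7 neutrophil markers was 4774, 1366 and 4363 against 1156 to 1338 on the other arrays. Of these lists Spdef and Ngp were above the detection limit on no array. Alveolar type 1, alveolar type 2, and endothelial markers were present in every group. Between 102 and 108 of the 116 members exceeded the detection limit on each array. Of the members, 85 exceeded it on all 9 arrays, 25 on 4 to 8 and 6 on only 3. Slc1a2 was kept through the 3 saline arrays alone and Slc5a1 through the 3 OVA arrays alone, so for both a group difference was built into the choice. At the threshold, the third highest array of Slc38a10 (its second probe set) read 44.7 and that of Slc39a3 45, just inside, and those of Slc22a2 and Slc33a1, carriers of organic cations and of acetyl-CoA, read 44.3 and 44, just outside. Of the 67 probe sets not detected, 58 exceeded the limit on no array, 4 on 1 and 5 on 2.

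The first comparison, OVA against saline, asks what allergen challenge altered. The phagosomal metal transporter Slc11a1 rose 2.93-fold and the mitochondrial glutathione carrier Slc25a39 1.38-fold. The neutral amino acid carrier Slc38a4 fell 4.01-fold, the bicarbonate cotransporter Slc4a5 1.76-fold, the nucleoside transporter Slc29a1 1.65-fold, the scaffold protein Slc9a3r2 1.54-fold and the glycine transporter Slc6a9 1.49-fold. The glucose cotransporter Slc5a1, higher, and the glutamate transporter Slc1a2, lower, passed as well, but each was kept through 1 group alone, so their difference was built into the choice and supports nothing. In all, 9 of 116 member probe sets (7.76%) passed an adjusted p of 0.05, 3 higher and 6 lower, against 9.49% of the 7920 probe sets tested (5.08% higher and 4.42% lower). Without Slc5a1 and Slc1a2 it was 7 of 114 (6.14%). The share is near that of the array as a whole. The median log2 change of the members was −0.12, against −0.085 for all probe sets tested, the median absolute change was 0.25 against 0.26, and 63.8% of members were lower in sign against 60%. Groups did not overlap for 43 members (37.1%), 14 higher and 29 lower, against 37.6% of all, of which 15.5% were higher and 22% lower. At an unadjusted p of 0.05 it was 31 members (26.7%) against 29.1% of all. The count of 9 rested on which arrays entered: it was 3, 4 and 2 without saline array 1, 2 or 3, and 1 without OVA array 1 or OVA array 2, where only Slc11a1 passed. In each of these fits the share of all probe sets that passed was also far below 9.49%. The loss of calls was therefore not confined to the members.

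**Figure D1:**
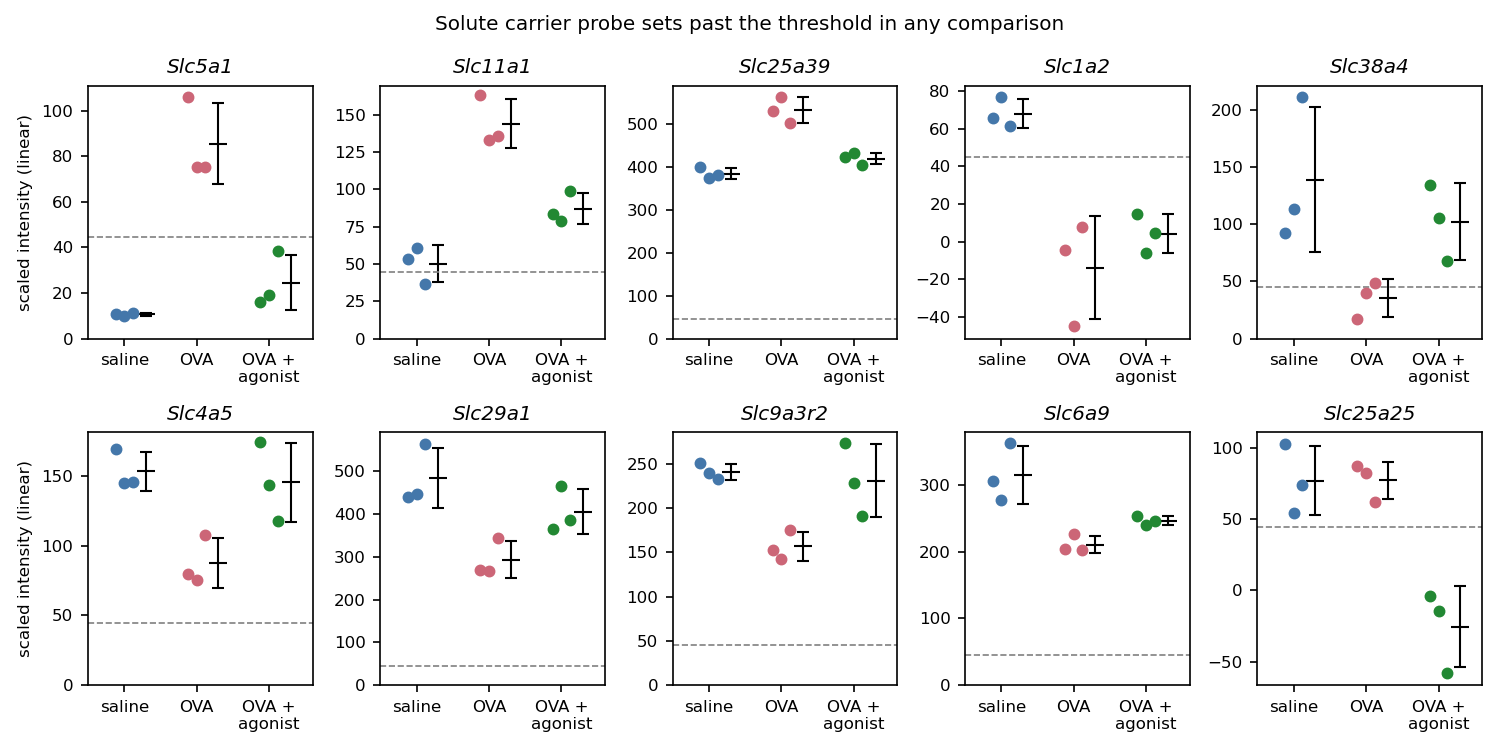
Scaled intensity on a linear axis, 1 panel per solute carrier probe set that passed in any comparison, 1 point per array (blue saline, red OVA, green OVA plus agonist). Black bars are means ± SD of 3 arrays and the dashed line is the detection limit of 44.7; Slc5a1 exceeded it only on the OVA arrays, Slc1a2 only on the saline arrays, and Slc25a25 on no agonist array.

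Among the sugar transporters, Slc5a1, the sodium-coupled glucose cotransporter SGLT1, read 10.7, 9.99 and 11.3 on the saline arrays, 106, 75.2 and 75.4 on the OVA arrays, and 16, 19.1 and 38.5 on the agonist arrays. Every OVA array lay above every other array, and the saline and agonist arrays all lay below the detection limit. The OVA mean of 85.5 ± 17.7 (SD, n = 3) was therefore at least 1.89-fold above what saline lung could show, with a measured saline mean of 10.6 ± 0.65 (log2 change 2.99 ± 0.31 SE, adjusted p = 0.00854). Since the OVA arrays alone brought the probe set into the list, this is a description of its levels. The other 5 sugar probe sets did not pass and were all lower in sign. Slc2a3, the high-affinity glucose transporter GLUT3, read 94.5, 69.2 and 69.3 in saline and 24.5, 54.2 and 58.5 in OVA lung, with no overlap (log2 change −0.85 ± 0.34 SE, adjusted p = 0.153). Its lowest OVA array lay below the detection limit. A second probe set of the gene was not detected, and read 24.2, 22.5 and 14.4 in saline and 19.1, 24.2 and 24.4 in OVA lung. The median of the 6 sugar probe sets was −0.25. One of them, Slc5a6, is grouped here by its family number although it carries vitamins.

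Slc11a1, also called NRAMP1, exports divalent metal ions from the phagosomes of macrophages. It read 53.3, 60.7 and 36.4 in saline, 163, 133 and 136 in OVA and 83.7, 78.7 and 99 in agonist lung. The 3 groups did not overlap, with saline lowest, OVA highest and the agonist arrays between. OVA lung was 2.93-fold higher (144 ± 16.7 against 50.1 ± 12.4, SD, n = 3, log2 change 1.55 ± 0.20 SE, adjusted p = 0.00981), and the difference passed whichever of the 9 arrays was left out (adjusted p from 0.0067 to 0.047). The third saline array lay below the detection limit, and with values held at that limit the change was 1.45. Macrophage markers moved with it. Their sum over 7 genes was 1462 to 1639 in saline, 2690 to 3244 in OVA, and 1693, 1829 and 2476 on the 3 agonist arrays, and 4 of the 5 that were tested rose in OVA lung. Marco was not detected on any array. Smooth muscle markers (2 of 5 higher) summed to 2859 to 3127 in saline, 4166 to 5002 in OVA and 3172 to 3509 in agonist lung, and those of B and plasma cells (1 of 5 higher) to 1985 to 2464, 3388 to 4024 and 1694 to 3214. The part of these cells in the rises of Slc11a1 and Slc25a39 was not tested.

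The other metal transporters showed no call in any comparison. The 20 probe sets of the class, Slc11a1 among them, had a median log2 change of −0.036, which ran from −0.087 to 0.042 over 18 other settings and was above 0 in 5 of them: quantile normalisation, equal array medians, the filter at the 60th percentile, and without saline array 3 or OVA array 1. Slc39a7, a zinc importer of the secretory pathway, read 474, 453 and 491 in saline and 557, 580 and 537 in OVA lung, without overlap (0.24 ± 0.076 SE, adjusted p = 0.0856). Slc30a4, which exports zinc into vesicles, spread widely in saline lung, from 39.7 to 140, and read 130 to 193 in OVA lung (1.21 ± 0.42 SE, adjusted p = 0.107). Slc31a1, the copper importer, was lower in sign on both of its probe sets, by 0.25 and 0.14 on the log2 scale, with adjusted p of 0.114 and 0.357.

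Of 21 probe sets for mitochondrial carriers 1 rose and none fell. Slc25a39, which brings glutathione into mitochondria, read 399, 373 and 380 in saline, 530, 562 and 502 in OVA and 422, 431 and 404 in agonist lung. All OVA arrays lay above the rest. The rise was 1.38-fold (531 ± 29.9 against 384 ± 13.6, log2 change 0.47 ± 0.08 SE, adjusted p = 0.02), the smallest change among those called. Its adjusted p with 1 array left out ran from 0.0184 to 0.0741 and exceeded 0.05 without any 1 of the saline arrays or without OVA array 1 or 2. Slc25a36, a carrier of pyrimidine nucleotides, read 675, 603 and 681 in saline and 406, 483 and 502 in OVA lung (−0.50 ± 0.15 SE, adjusted p = 0.0739). The dicarboxylate carrier Slc25a10 had a large difference that did not pass: 9.36, 45 and −10.1 in saline against 106, 80.3 and 86.9 in OVA lung (3.05 ± 1.26 SE, adjusted p = 0.159). Held at the detection limit, its difference was 1.01. Outside the OVA group only saline array 2 and agonist array 2 exceeded that limit, so without the OVA arrays the probe set would not have been kept. The difference of Slc25a10 was therefore partly built into the choice. The ADP/ATP carrier Slc25a5 was higher in sign on its 3 probe sets, by 0.31, 0.34 and 0.38, with adjusted p from 0.0862 to 0.459, and its close relative Slc25a4 differed by −0.042 (adjusted p = 0.802). Transcripts of such close relatives can share probes. The median of the mitochondrial carriers was −0.06.

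**Figure D2:**
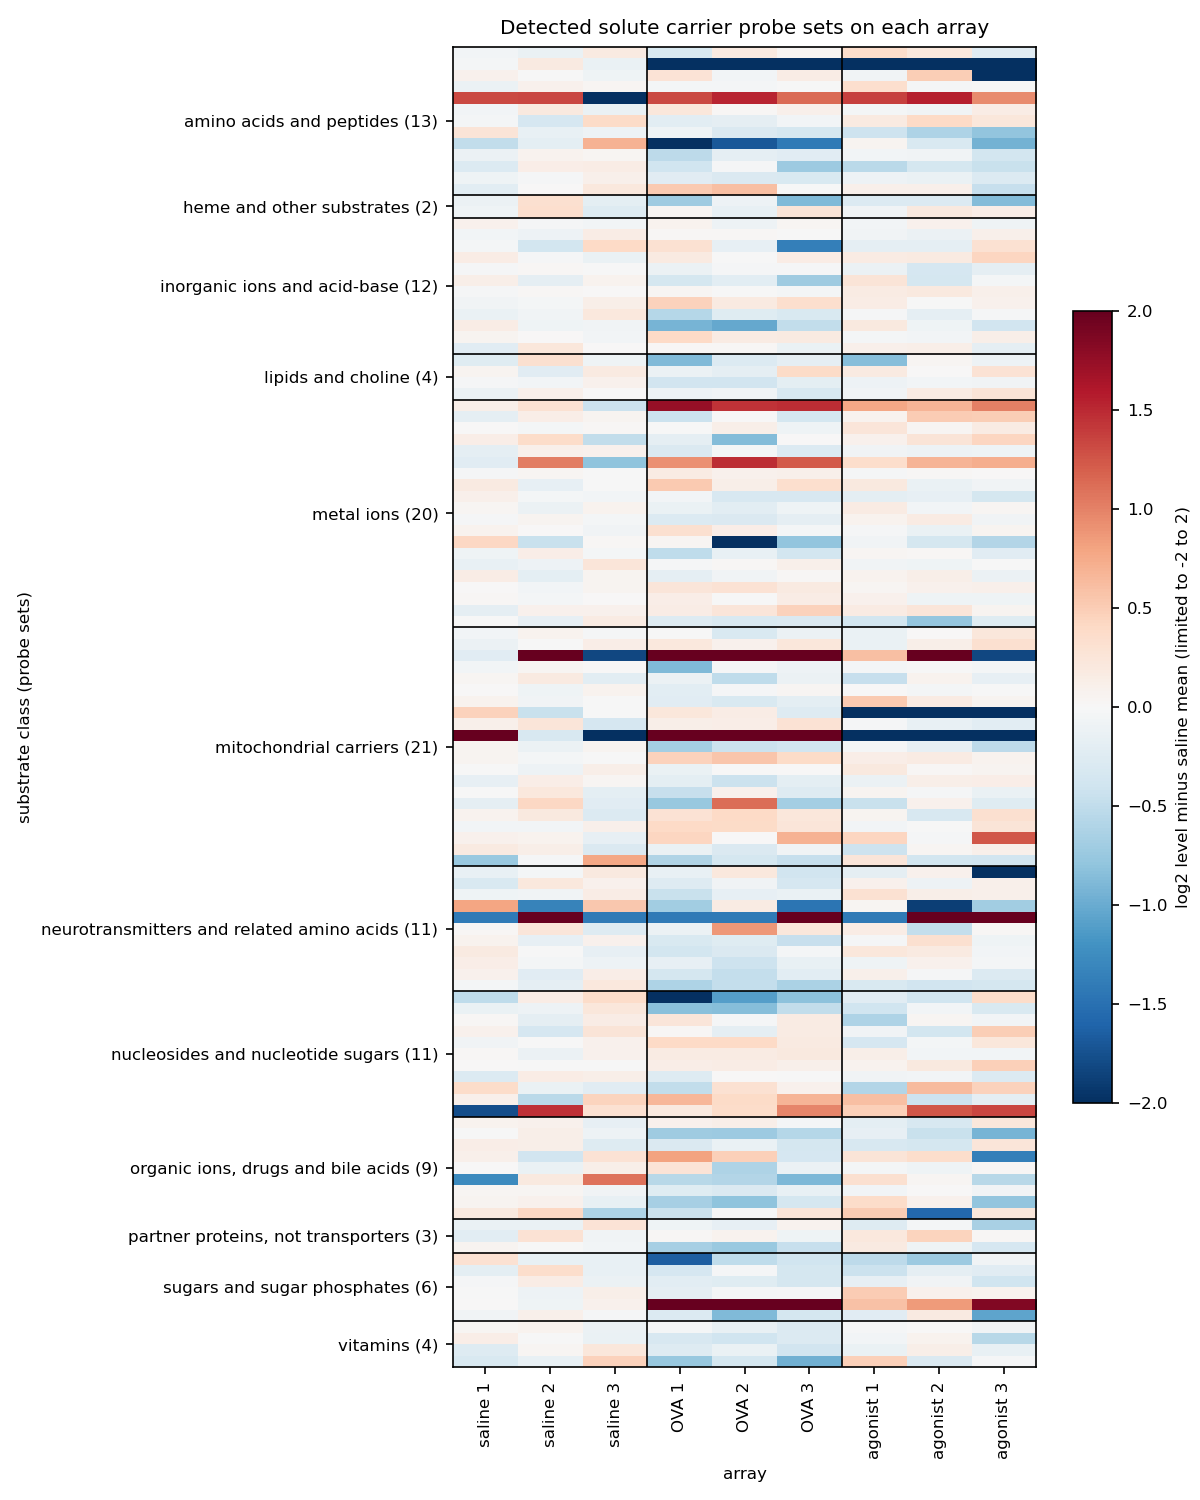
Each row is 1 of the 116 detected solute carrier probe sets, grouped by substrate class with the number of probe sets in brackets, and each column is 1 array. Colour is the log2 level minus the mean of the 3 saline arrays, limited to −2 and 2. Few rows stand out, among them Slc5a1 (red on the OVA arrays) and Slc25a25 (dark blue on the 3 agonist arrays).

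Of the 13 probe sets for amino acid and peptide transporters, 2 passed, both lower. Slc1a2, a glutamate transporter best known from astrocytes, read 65.5, 76.6 and 61.6 in saline, −4.37, −44.8 and 7.65 in OVA and 14.5, −6.31 and 4.51 in agonist lung. Only the saline arrays exceeded the detection limit, so the fall was at least 1.51-fold (adjusted p = 0.0131). The fitted log2 change of −4.01 ± 0.58 SE depends on the floor set for low values, at which 2 of the OVA arrays lay, and held at the detection limit the change was −0.60. The call was lost without OVA array 1 or 2, with adjusted p of 0.0627 and 0.0539, and with an intensity trend (0.0677). Slc38a4, a sodium-coupled carrier of small neutral amino acids, read 92.2, 113 and 211 in saline, 17.3, 40.2 and 48.7 in OVA and 134, 105 and 67.6 in agonist lung. The OVA arrays lay below all the others. The fall was 4.01-fold (35.4 ± 16.2 against 139 ± 63.2, log2 change −2.0 ± 0.47 SE, adjusted p = 0.0409), and −1.50 on the log2 scale with values held at the detection limit. Its adjusted p with 1 array left out ran from 0.0395 to 0.11, and the call was lost without any 1 of the saline arrays, OVA array 1 or 2, or agonist array 2. It was also lost with no filter (0.0747) and with only the 6 arrays compared (0.064). The other 11 probe sets of the class did not pass. Slc3a2, the chain that carries several amino acid transporters to the surface, read 1228, 1285 and 1396 in saline and 1111, 1067 and 1051 in OVA lung (−0.27 ± 0.089 SE, adjusted p = 0.0892). Slc7a5, one of its partners, was higher in sign by 0.37 ± 0.22 SE (adjusted p = 0.306). The median of the class was −0.15.

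The neurotransmitter transporter family had 11 detected probe sets, of which 1 fell. Slc6a9, the glycine transporter GLYT1, read 306, 277 and 363 in saline, 204, 226 and 202 in OVA and 254, 240 and 246 in agonist lung, and the 3 groups did not overlap. The fall was 1.49-fold (211 ± 13.1 against 315 ± 43.6, log2 change −0.58 ± 0.11 SE, adjusted p = 0.0269). With 1 array left out its adjusted p ran from 0.0303 to 0.0946, and the call was lost without saline array 1 or 3 or any 1 of the OVA arrays, and also with only the 6 arrays compared (0.0526). The serotonin transporter Slc6a4 read 145, 124 and 147 in saline and 112, 117 and 100 in OVA lung (−0.34 ± 0.14 SE, adjusted p = 0.151). That probe set is of a kind marked as matching several family members or built under relaxed rules, so its values may mix transcripts. The gene's other probe set was not detected and read from −37.3 to 3.66 over all arrays. Both probe sets of the taurine transporter Slc6a6 were lower in sign, by 0.24 and 0.23, and the creatine transporter Slc6a8 by 0.35, with adjusted p from 0.161 to 0.298. The median of the family was −0.24.

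Of 12 probe sets for transporters of inorganic ions, acid and base, 1 fell. Slc4a5, a sodium bicarbonate cotransporter, read 170, 145 and 146 in saline, 79.9, 75.3 and 108 in OVA and 175, 144 and 118 in agonist lung. The OVA arrays lay below the others, and the saline and agonist arrays overlapped. The fall was 1.76-fold (87.9 ± 18 against 153 ± 14.5, log2 change −0.82 ± 0.19 SE, adjusted p = 0.0372), and with 1 array left out its adjusted p ran from 0.029 to 0.126. The call was also lost with no filter (0.0612). Slc4a2, an anion exchanger that trades chloride for bicarbonate, had 204, 207 and 230 in saline and 292, 240 and 269 in OVA lung (0.32 ± 0.10 SE, adjusted p = 0.0878). Slc34a2, the phosphate cotransporter of alveolar type 2 cells, read 3814, 3936 and 3888 in saline and 3988, 3855 and 3757 in OVA lung. These groups overlapped (−0.005 ± 0.072 SE, adjusted p = 0.972). The sum of 3 alveolar type 2 markers was 15858 to 19201 in saline and 12814 to 16390 in OVA lung, which overlapped too, and 1 of the 3 fell.

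Slc29a1, the equilibrative transporter that takes up adenosine and other nucleosides, read 439, 448 and 565 in saline, 270, 267 and 344 in OVA and 366, 465 and 387 in agonist lung. The OVA arrays lay below all saline and agonist arrays. The fall was 1.65-fold (294 ± 43.4 against 484 ± 70.6, log2 change −0.72 ± 0.16 SE, adjusted p = 0.0335). A second, dimmer probe set of the gene read 53.5, 84.2 and 98.5 in saline, 12.3, 35.5 and 43.1 in OVA and 65.5, 57.8 and 98 in agonist lung. It ran in the same direction, at least 1.71-fold, and did not pass (−1.52 ± 0.48 SE, adjusted p = 0.0856). The brighter probe set had adjusted p from 0.0328 to 0.115 with 1 array left out and lost its call without any 1 of the saline arrays or OVA array 1 or 2, and also with no filter (0.0502) and with only the 6 arrays compared (0.0509). The remaining 9 probe sets of the class, for Slc35 carriers that bring nucleotide sugars into the Golgi and endoplasmic reticulum and their relatives, did not pass, and the median of the class was 0.13. Slc35b1 read 661, 690 and 734 in saline and 913, 912 and 782 in OVA lung (0.32 ± 0.15 SE, adjusted p = 0.198).

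Slc9a3r2 is a partner and not a transporter: a PDZ-domain scaffold that ties sodium-proton exchangers to the cytoskeleton. It read 251, 240 and 233 in saline, 153, 143 and 175 in OVA and 274, 228 and 191 in agonist lung, with all OVA arrays below the rest. The fall was 1.54-fold (157 ± 16 against 241 ± 9.02, log2 change −0.62 ± 0.14 SE, adjusted p = 0.0371). Its relative Slc9a3r1 differed by 0.0029 ± 0.16 SE (adjusted p = 0.993). Slc9a3r2 and Slc4a5 both lost their call without any 1 of the saline arrays, OVA array 1 or 2, or agonist array 2, and the adjusted p of Slc9a3r2 then reached 0.12. Slc9a3r2 lost it with no filter (0.0534) and with equal array medians (0.0523) too. Slc4a1ap, whose product is named for binding an anion exchanger, read 50.2, 50.4 and 66.4 in saline and 52, 49.4 and 57.9 in OVA lung, with overlap (−0.057 ± 0.18 SE, adjusted p = 0.861). Markers of endothelium fell alongside: the sum of 6 was 6039 to 6326 in saline, 4310 to 4815 in OVA and 5865 to 6286 in agonist lung, and 4 of the 6 fell in OVA lung. Those of alveolar type 1 cells had sums of 12404 to 13489, 9334 to 10157 and 12170 to 13357. Red cell markers summed to 9014 to 10508, 5688 to 6303 and 8169 to 9753. Cardiac muscle markers, of which 4 of 6 fell in OVA lung, summed to 2968 to 3709, 2480 to 3260 and 3296 to 3649, and the 3 fat markers on the array, of which 2 fell, to 381 to 493, 254 to 274 and 487 to 815. The part of these cells in the falls of Slc29a1, Slc4a5, Slc9a3r2, Slc6a9 and Slc38a4 was not tested.

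Transporters of organic ions and bile acids (9 probe sets), lipids and choline (4), vitamins (4) and heme or other substrates (2) had no call in any comparison. Their medians between OVA and saline were −0.22, −0.24, −0.29 and −0.25, and at an unadjusted p of 0.05 limma gave 2, 1, 1 and 0 of them. The values closest to the threshold were those of Slc44a2, a choline transporter-like protein, with 494, 483 and 535 in saline and 388, 388 and 438 in OVA lung (−0.32 ± 0.085 SE, adjusted p = 0.0574), and of Slc10a6, a carrier of sulfated steroids, with 292, 318 and 272 against 180, 177 and 199 (−0.67 ± 0.19 SE, adjusted p = 0.0628). Slc22a23, of the organic ion family, read 107, 107 and 100 against 89.1, 86.2 and 94.8 (−0.22 ± 0.078 SE, adjusted p = 0.11). In these 3 genes the OVA arrays did not overlap the saline arrays. Slc23a2, which takes up vitamin C, read 893, 814 and 748 in saline and 655, 617 and 677 in OVA lung (−0.33 ± 0.16 SE, adjusted p = 0.222). Slc23a3, of the same family, had 146, 161 and 247 against 107, 140 and 92.3 on its brighter probe set (−0.69 ± 0.27 SE, adjusted p = 0.142). Slc27a4, a fatty acid transporter, overlapped between the groups (−0.45 ± 0.29 SE, adjusted p = 0.342), as did Slc48a1, which carries heme (−0.56 ± 0.26 SE, adjusted p = 0.195). Of the 11 classes with at least 3 probe sets, the median was below 0 in 10, as was the median of all probe sets tested. That count was 8 with equal array medians and 9 under quantile normalisation.

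**Figure D3:**
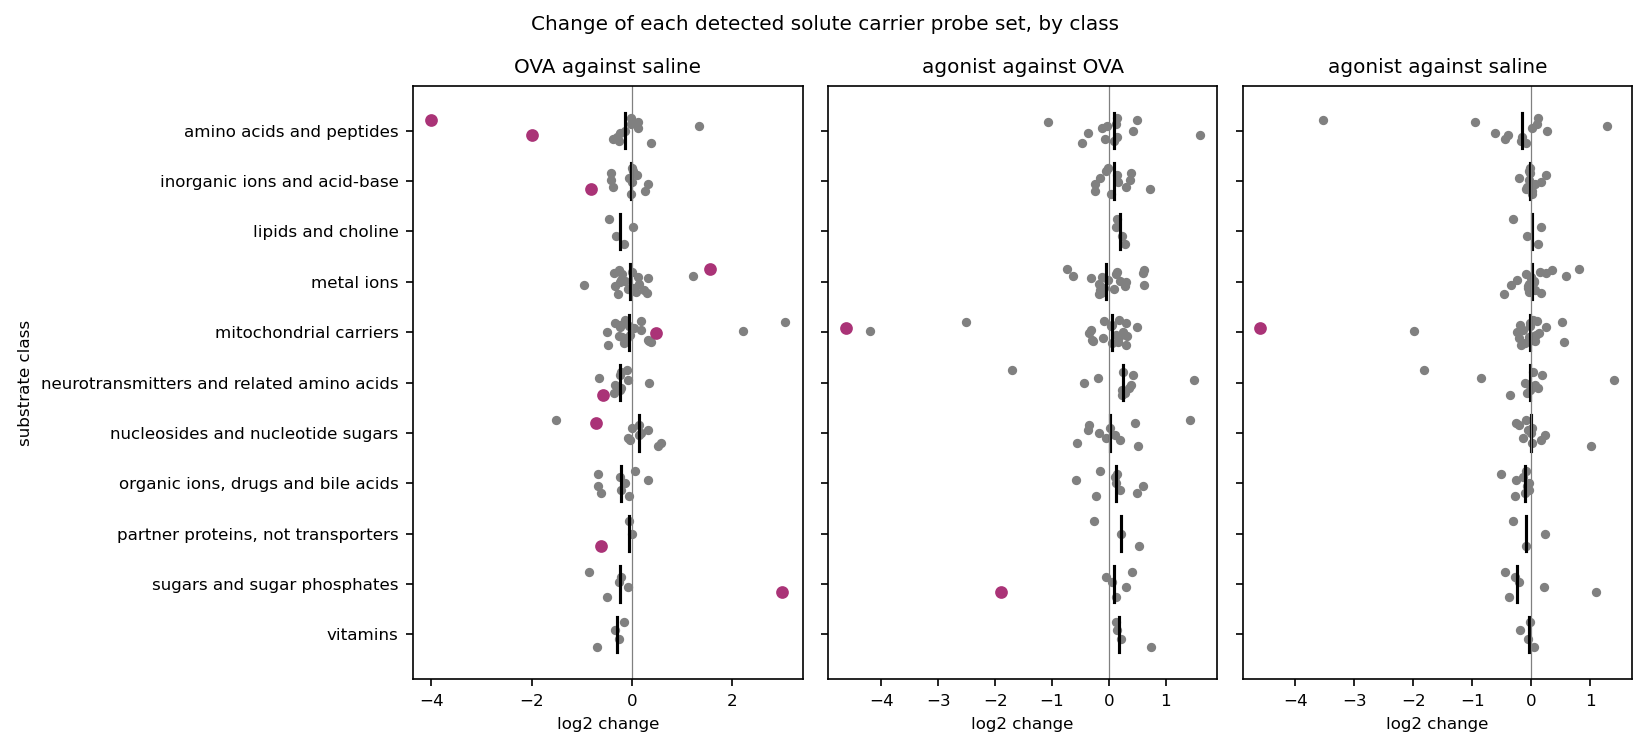
Log2 change of each detected solute carrier probe set in the 11 classes with at least 3, for OVA against saline, agonist against OVA and agonist against saline. Grey points did not pass, purple points passed an adjusted p of 0.05, and the black line is the class median. The medians lie within 0.29 of 0, and the 9 purple points of the left panel are spread over 8 classes.

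The second comparison, agonist against OVA, asks what the EP3 agonist changed in challenged lung. It shares the OVA arrays with the first, and the changes in both are therefore not independent. Slc5a1 and Slc25a25 were lower with the agonist and no member was higher. These 2 of 116 member probe sets (1.72%) compare with 2.75% of all probe sets tested (1.25% higher and 1.5% lower). Slc5a1 was kept through the OVA arrays alone, so its difference from them was built into the choice and supports nothing. Apart from it, only Slc25a25 passed. The median log2 change of the members was 0.12, against 0.064 for all, and 38.8% of members were lower in sign, against 41.8%. Groups did not overlap for 39 members (33.6%), 25 higher and 14 lower, against 29.9% of all, of which 17.8% were higher and 12% lower. At an unadjusted p of 0.05, 27 members (23.3%) passed against 24.2% of all. Without agonist array 3 the count was 6, with Slc4a5, Slc9a3r2, Slc25a20 and Slc22a5 higher as well. It was 1 without saline array 2 or 3, any 1 of the OVA arrays, or agonist array 1 or 2. The share of all probe sets in these fits with an array left out is not given here.

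Slc25a25, a mitochondrial carrier that exchanges ATP-magnesium for phosphate and is sensitive to calcium, read 103, 54.7 and 74 in saline, 87.2, 82.4 and 62.4 in OVA and −4.2, −14.3 and −57.8 in agonist lung. All 6 arrays of the saline and OVA groups exceeded the detection limit and no agonist array did. Between OVA and saline lung the arrays overlapped (log2 change 0.036 ± 0.23 SE, adjusted p = 0.932). Agonist lung was at least 1.71-fold lower than OVA lung (measured means −25.4 ± 28.4 and 77.3 ± 13.2, adjusted p = 6.55e-05) and at least 1.67-fold lower than saline lung (77.2 ± 24.2, adjusted p = 2.43e-04). All agonist arrays lay at the floor, which leaves their spread out of the standard error and makes these p-values small. With the floor raised to the detection limit the adjusted p was 0.0785 against OVA and 0.424 against saline. The call held with each of the 9 arrays left out. Which of the RefSeq starts of the gene this probe set reads was not analysed here.

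Slc5a1 was the other member lower in agonist lung: 16, 19.1 and 38.5 against 106, 75.2 and 75.4 in OVA lung, all agonist arrays below the detection limit and all OVA arrays above it. The difference was at least 1.89-fold (measured means 24.6 ± 12.2 and 85.5 ± 17.7, log2 change −1.89 ± 0.31 SE, adjusted p = 0.0375). The OVA arrays alone brought this probe set into the list, so the difference from them was built into the choice. The highest agonist array was array 3, which also had the highest goblet marker sum of that group (5755), and the part of that array's cells was not tested. Without array 3 the adjusted p was 0.00181, and without any 1 of agonist arrays 1 and 2 or the saline arrays it exceeded 0.05 and reached 0.107. The call was also lost with no filter (0.0528), with an intensity trend (0.058) and with only the 6 arrays compared (0.116).

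A further mitochondrial carrier stood near the threshold. The phosphate carrier Slc25a3 read 54.5, 49.5 and 69.7 in OVA and −31.1, 3.05 and −41.9 in agonist lung, a difference of at least 1.28-fold (adjusted p = 0.0558). All agonist arrays lay at the floor, on which the fitted log2 change of −4.21 ± 0.91 SE depends, and held at the detection limit the change was −0.36. Its saline arrays read 61.4, 9.88 and −10.9. Only saline array 1 and the OVA arrays exceeded the detection limit, and without the OVA arrays the probe set would not have been kept. Its difference from OVA lung was therefore partly built into the choice. Slc11a2, the iron and manganese importer DMT1, read 565, 769 and 599 in OVA and 803, 1087 and 1079 in agonist lung on its brighter probe set (0.62 ± 0.17 SE, adjusted p = 0.0879), and its other probe set differed by 0.14 ± 0.091 SE (adjusted p = 0.375). The carnitine carrier of mitochondria, Slc25a20, had 187, 178 and 192 against 317, 246 and 229 (0.49 ± 0.13 SE, adjusted p = 0.0755). In each of these 3 the OVA and agonist arrays did not overlap.

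Of the members that passed between OVA and saline, 7 were not kept through 1 group alone. Their log2 changes between agonist and OVA lung, in which none passed, were 1.60 for Slc38a4 (adjusted p = 0.0984), 0.73 for Slc4a5 (0.0758), 0.54 for Slc9a3r2 (0.0781), 0.47 for Slc29a1 (0.125), 0.23 for Slc6a9 (0.261), −0.73 for Slc11a1 (0.0838) and −0.34 for Slc25a39 (0.0641). Both comparisons use the same OVA arrays, which also chose these members, so the values stand side by side as a description.

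The third comparison, agonist against saline, asks what remained different from unchallenged lung. Slc25a25, described above, was the only member that passed, and it was lower (1 of 116, 0.862%, against 0.0758% of all probe sets tested, 0.0379% higher and 0.0379% lower, 6 in number). At an unadjusted p of 0.05, 10 members (8.62%) passed against 7.71% of all. Groups did not overlap for 19 members (16.4%), 7 higher and 12 lower, against 13.7% of all, of which 6.65% were higher and 7.03% lower. The median log2 change was −0.033 against −0.0029 for all, and 58.6% of members were lower in sign against 50.7%. Slc1a2 had a difference of at least 1.51-fold that did not pass (adjusted p = 0.188) and Slc11a1 was higher in sign by 0.82 ± 0.20 SE (adjusted p = 0.406). All 6 arrays of Slc5a1 in these groups lay below the detection limit, so no difference is given. Slc38a2, a sodium-coupled carrier of neutral amino acids, read 583, 439 and 454 in saline, 459, 398 and 384 in OVA and 367, 317 and 283 in agonist lung (−0.61 ± 0.15 SE against saline, adjusted p = 0.409). The magnesium transporter Slc41a1 read 183, 164 and 204 in saline and 142, 107 and 155 in agonist lung (−0.46 ± 0.15 SE, adjusted p = 0.513). Slc3a1, the partner chain of the cystine transporter, had 61.2, 80.8 and 81.9 against 50.8, 57.8 and 54.3 (−0.45 ± 0.19 SE, adjusted p = 0.645).

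In all, 10 genes had more than 1 detected probe set, and in 6 of them all probe sets had the same sign between OVA and saline, in 6 between agonist and OVA, and in 7 between agonist and saline. Slc29a1 was the 1 gene whose probe sets differed in call. Probe sets that were not detected do not enter these counts, and Slc2a3, Slc30a4, Slc6a4, Slc6a8 and Slc38a2 are among the members that had such probe sets. Of the 116 probe sets, 12 are of the kinds that the maker marks as matching several family members or as built under relaxed rules, and their values may mix transcripts.

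Other transport genes outside the series were read from a separate list: ABC pumps, aquaporins, organic anion carriers of the Slco family, the sodium pump, the epithelial sodium channel and iron or metal-binding partners. Of 55 probe sets for 44 genes, 32 for 28 genes were tested. In OVA lung 5 fell and none rose (15.6%, against 9.49% of all in both directions and 4.42% lower): Aqp1, Abcc9, Abcc3, Abcb1a and Abcg1. Aqp1, the water channel of lung microvessels, read 1084, 1137 and 1143 in saline, 717, 655 and 869 in OVA and 1384, 1283 and 1434 in agonist lung on its brighter probe set. It fell 1.51-fold with challenge (adjusted p = 0.0261) and was 1.84-fold higher with the agonist than without (adjusted p = 0.0274), with no overlap between any of the groups. Its other probe set overlapped between OVA and saline (−0.28 ± 0.16 SE, adjusted p = 0.302) and between agonist and OVA (0.19 ± 0.16 SE, adjusted p = 0.519). Between agonist and saline that probe set was lower in sign (−0.088 ± 0.16 SE, adjusted p = 0.931), while the brighter one was higher in sign (0.28 ± 0.12 SE, adjusted p = 0.62). Abcc3, an organic anion pump, fell 1.31-fold (adjusted p = 0.0283) and was 1.33-fold higher with the agonist (adjusted p = 0.0444). Abcc9, the sulfonylurea receptor of vascular potassium channels, fell 1.62-fold (adjusted p = 0.0194) and was 1.52-fold higher with the agonist (adjusted p = 0.0448). It read 53.9, 49.1 and 46.2 in saline, 26.9, 33.8 and 31.8 in OVA and 50, 47 and 43.1 in agonist lung. All its OVA arrays and agonist array 3 lay below the detection limit, so both folds rest on readings under that limit. Without the saline arrays the probe set would not have been kept, so the fall of Abcc9, counted among the 5, was partly built into the choice. Abcb1a, the drug pump P-glycoprotein, fell 1.9-fold (adjusted p = 0.0377) and Abcg1, which exports cholesterol, 1.88-fold (adjusted p = 0.0425). With the agonist 3 of the 32 rose against OVA and none fell (9.38%, against 2.75% of all in both directions and 1.25% higher). Against saline 0 passed by limma (5 at an unadjusted p of 0.05). Abca1, a cholesterol exporter, was higher in sign with the agonist than in OVA lung, by 0.53 ± 0.12 SE on its brighter probe set (adjusted p = 0.0641). Against saline the smallest p-values were those of Aqp8, a water channel (−0.65 ± 0.17 SE, adjusted p = 0.423), Abcd4 (0.84 ± 0.26 SE, 0.475), the glycerol channel Aqp7 (−0.44 ± 0.16 SE, 0.594) and the peroxisomal pump Abcd3 (0.21 ± 0.08 SE, 0.6). Without saline array 1, 2 or 3 or OVA array 1 none of the 5 falls was called, and without OVA array 2 there was 1. In these fits the share of all probe sets that passed between OVA and saline was also far below 9.49%. The 3 rises fell to 0 or 1 without any single array other than agonist array 3. The endothelial marker sums given above moved with these genes as well, and their part was not tested.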

How the data were processed

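Lung RNA of 3 groups of 3 arrays was read from the deposited table of intensities, 1 value per probe set and array on a linear scale, with some values below 0. What the authors subtracted or scaled before depositing these intensities is not given in the sources used here. Each array was scaled to a common 2% trimmed mean (deposited means 138.7 to 241.2, factors 0.741 to 1.29). Values under 3.10, the 20th percentile, were raised to that floor before log2. Of 12488 probe sets, 66 controls were left out, and the 7920 above 44.7 on at least 3 arrays were tested in 1 fit of 9 arrays by lmFit and eBayes of limma 3.58.1 under R 4.3.3. P-values are two-sided and adjusted by Benjamini-Hochberg over the 7920. A fold is 2 raised to the log2 change. "At least" folds set the geometric mean of the brighter group against the detection limit, where all its arrays lay above and all of the other group's at or below it. Precision is limited by 3 arrays per group.

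Symbols come from the array's probe annotation: 10833 probe sets had 1 symbol, 396 several and 1193 none. All 105 member genes matched RefSeq (GRCm38.p6) by gene ID, with 0 symbols changed. Classes follow the Slc family number; families 48, 51 and 66 were classed after the data were seen. Members and lists were chosen with earlier results of these data known. Named members are those that passed in any comparison, the 10 largest changes without overlap in each, the 2 smallest p-values of each class, genes whose probe sets differ in call, and those beside the detection threshold; of other transport genes, the 4 smallest p-values per comparison. The other members named (Slc30a4, Slc31a1, Slc25a5, Slc25a4, Slc25a20, Slc22a5, Slc3a2, Slc7a5, Slc6a6, Slc6a8, Slc34a2, Slc35b1, Slc9a3r1, Slc5a6) and Abcg1 were chosen after their values were seen. The procedure was tested on simulated data.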

Additional observations from a re-analysis of the deposited data

How the results depend on the processing

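Of 1151 values of the named members under other settings, 1137 had the direction of the reported value. Where groups do not overlap, leaving out an array cannot turn the direction, so part of this count was fixed in advance. The settings were other scalings (by quantiles or medians), floors (at the 40th percentile or none) and filters (none or the 60th percentile), an intensity trend, only the 6 arrays compared, the replicate block and left-out arrays. The 14 that turned, none of which passed, were those of Slc34a2 (0.081 with quantile normalisation, 0.026 with equal medians), and, with an array left out, Slc34a2 (range −0.028 to 0.016), Slc9a3r1 (−0.10 to 0.15), Slc25a4 (−0.091 to 0.014), Slc4a1ap (−0.12 to 0.077) and Slc25a25 between OVA and saline (−0.19 to 0.27). Slc5a1 between agonist and saline gave no value with the floor at the 40th percentile, where both groups lie. Between OVA and saline the count of 9 was 7 to 12 under all of these other than the block and left-out arrays, with 5 of the 9 called without the filter and 6 with the stricter one. With 1 array left out it ran from 1 to 12. Agonist against OVA gave 4 calls with the 60th percentile filter, none of them among the original 2, and 1 to 6 with an array left out. Agonist against saline gave 0 with the floor at the 40th percentile or the filter at the 60th, which Slc25a25 fails, and 1 to 2 with an array left out. The shares of all probe sets beside these counts of the agonist comparisons are not given here. Of other transport genes, the 5 falls ran from 0 to 7 and the 3 rises from 0 to 4 with an array left out, and the rises were 1 under quantile normalisation and 0 with only the 6 arrays compared. Classes with a median below 0 were 2 in agonist against OVA with the filter at the 60th percentile and 1 to 3 with an array left out, and 5 in agonist against saline with equal medians. The cause was not tested. Alternatives for class medians, other transport genes and members outside the naming rule were added after seeing the data.

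The labels do not say whether the replicate numbers of the titles pair the arrays. Deviations of same-numbered arrays correlated between −0.139 and 0.169, and those of differently numbered arrays between −0.154 and 0.149. With 3 arrays per group these values cannot show whether the arrays were paired. With the number as a block, 1 member passed between OVA and saline (Slc5a1), where 0.631% of all probe sets passed. The count was 1 between agonist and OVA and 1 between agonist and saline (Slc25a25 in both). Of other transport genes 0 passed in any comparison. With the block the adjusted p was 0.0537 for Slc11a1, 0.0581 for Slc1a2, 0.0633 for Slc25a39, 0.0669 for Slc29a1, 0.0719 for Slc6a9, 0.0814 for Slc9a3r2, 0.0835 for Slc4a5 and 0.0842 for Slc38a4, and 0.114 for Slc5a1 between agonist and OVA. Slc5a1 without an OVA array, and Slc1a2 without a saline array, fail the detection rule and gave no value. Signals near the detection limit, as for Slc5a1, Slc1a2 and Slc25a25, allow only lower bounds of a fold.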

Other observations

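Slc7a7, which carries cationic and neutral amino acids and is known from macrophages, was no member, since only 2 of its arrays exceeded the detection limit. It read 9.28, −27.6 and −9.95 in saline, 65.8, 35.3 and 53.4 in OVA and −17.1, −2.24 and −39.6 in agonist lung. All OVA arrays lay above the others, and it passed in both OVA comparisons when every probe set was tested without a filter. All its agonist readings and its negative saline readings were raised to the floor for low values. That leaves their spread out of the standard error and makes the p-values of these passes small. An OVA array also lay below the detection limit, so no lower bound of a fold is given. Slc7a7 was named after its values were seen.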
